A study of Caenorhabditis elegans with 11 samples.

Results

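Phenylalanine-betaxanthin is a betalain, one of the yellow and violet pigments of cacti and beets, in which betalamic acid is joined to the amino acid phenylalanine. It was fed to Caenorhabditis elegans of the wild-type laboratory strain N2, and the whole-animal transcriptome was set against that of untreated animals. The comparison took the 3 arrays labelled with the compound and the 2 arrays labelled as control, 5 of the 11 arrays of the series, chosen by the treatment label. All groups were wild type, were synchronised by bleaching and were kept at 20 °C. Exposure to 25 uM of the compound began at the L1 larval stage, 16 to 18 h after hatching, and lasted 48 h in S medium. The labels call every sample young adults of 3 days after hatching. The other 6 arrays, which enter below where named, came from animals given 25 uM indicaxanthin, the proline-betaxanthin (3 arrays), or indoline carboxylic acid-betacyanin (3 arrays). The labels do not say whether the controls received the solvent of the compounds, or how many animals were pooled in a sample. Each sample is called an independent trial, with no word on whether trials were separate cultures, so the p-values below cover the spread between arrays, which may be technical.

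A hermaphrodite worm that becomes an adult changes its transcriptome on a large scale. The gonad fills with meiotic germ cells and oocytes, the intestine starts to make yolk, and the skin stops the moulting cycle and turns from larval to adult cuticle collagens. Yolk genes, oocyte genes and adult collagens are therefore standard stage markers, and any treatment that alters growth or timing moves them together. Betalains are studied in worms mostly as dietary antioxidants, so genes of oxidative stress, of the insulin to DAF-16 pathway and of the SKN-1 pathway are the usual readouts. No nucleotide or protein sequence entered the measurements used here, and genes are given by symbol.

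Values are log2 levels made by RMA, 1 per transcript cluster (the probes of 1 gene or part of it), so a difference of 1 is a doubling of signal and levels of different genes cannot be ranked. A mean level of 1.523, the 25th percentile of named clusters, served as the filter and marks the region where a signal is near the array's floor. Of 20291 clusters above it, 5790 (28.5%) were higher with phenylalanine-betaxanthin than in control and 6646 (32.8%) were lower, by limma on the 5 arrays with Benjamini-Hochberg adjustment at 0.05. Against a 2-fold change (limma's treat), 2557 (12.6%) were higher and 2285 (11.3%) lower. The median size of the change was 0.675 on the log2 scale, against median standard deviations within a group of 0.149 for the treated arrays and 0.127 for the controls. With this share of clusters called, a gene list is read below against 28.5% and 32.8%, and not against a background near 0.

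The libraries did not sort by their labels. The treated arrays correlated at 0.99 to 0.992 with each other, the controls at 0.988 with each other, and the groups at 0.798 to 0.821 over all clusters. Indicaxanthin array 3 correlated at 0.99 to 0.994 with the treated arrays. Among the 5790 clusters called higher, the median level was 3.16 and 3.23 on the controls, 5.4, 5.36 and 5.23 on the treated arrays, and 5.4 on indicaxanthin array 3. Among the 6646 called lower it was 4.31 and 4.34, then 2.55, 2.55 and 2.56, and 2.51 on that same array. Indicaxanthin arrays 1 and 2 read 3.3 and 3.35, and 4.01 and 4.08, on the same clusters, near the controls. As a fraction of the treated shift from control, indicaxanthin array 3 had a median of 1.042 over the higher and 1.013 over the lower calls. The changes below were therefore not particular to the arrays of this compound. The level on indicaxanthin array 3 is printed below for some genes only, and its part in the contrast was not tested.

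The label of young adults was checked against stage markers, and both controls went against it. The 6 yolk genes averaged 1.71 and 1.56 on the controls, at the array floor, and 10.04, 10.01 and 10.07 on the treated arrays. The 35 tested moulting genes averaged 6.2 and 6.33 on the controls and 4.23, 4.4 and 4.51 on the treated arrays. The authors' deposited table for this compound adds a further measurement, because its sums of squares are 1.5 times the squared log2 ratio, as 3 arrays against 3 give, so it includes the third control of the design, an array not analysed here. Solving the authors' deposited tables for the third control gave a yolk mean of 10.22 from the table of this compound and 10.09 from that of indoline carboxylic acid-betacyanin. For the moulting genes, the authors' deposited tables gave it 4.22 and 4.31. By both measures the third control so implied lay with the treated arrays and apart from the 2 controls used here. In the same authors' deposited table, 1921 of 29317 clusters (6.55%) had an unadjusted p under 0.05. In these data the compound and the developmental state of the animals cannot be told apart, and every difference from control below is subject to that.

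**Figure D1:**
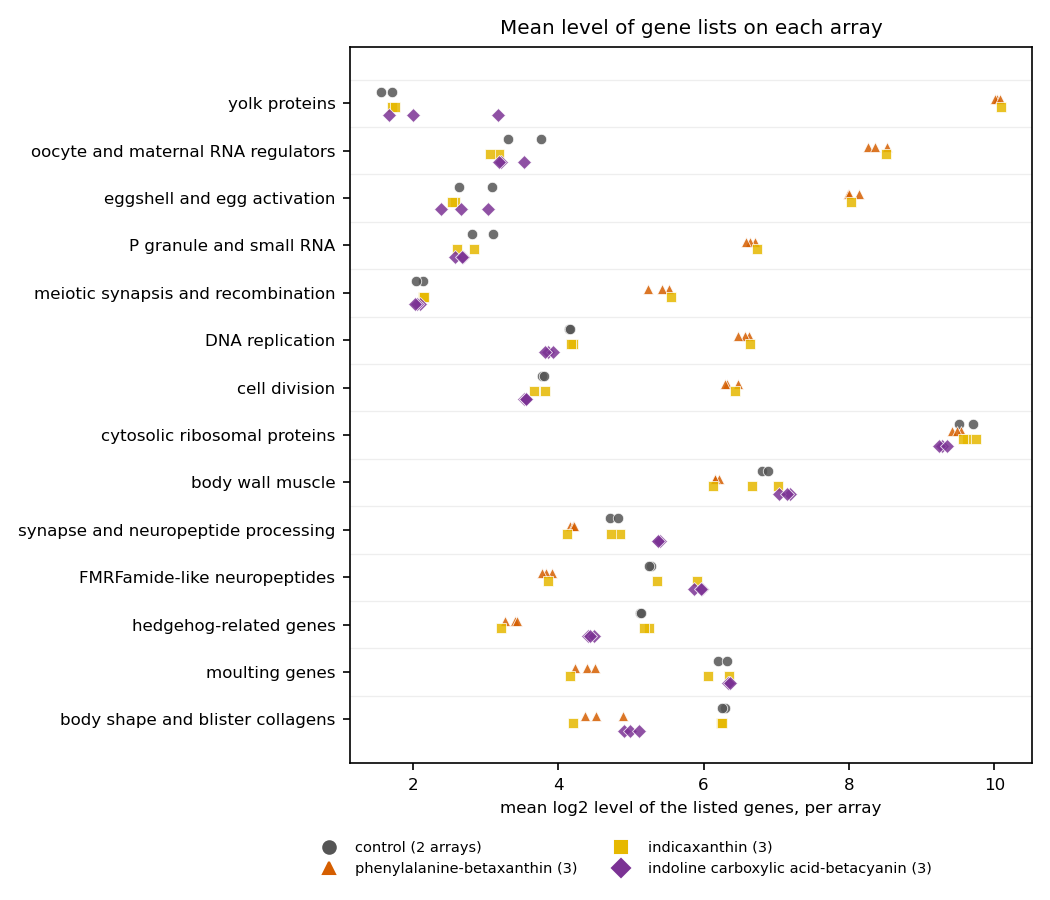
Mean log2 level (horizontal axis) of 14 gene lists on each of the 11 arrays, 1 point per array, with colour and shape giving the group. The 3 phenylalanine-betaxanthin arrays and 1 indicaxanthin array sit near 10 for yolk proteins, where both controls lie under 2, and the cytosolic ribosomal proteins lie between 9 and 10 on all arrays.

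Yolk proteins had the largest median change of the 51 gene lists. Vitellogenins are made by the adult intestine, loaded on lipid and taken up by oocytes, and all 6 of the family rose (vit-1 to vit-6), with a median change of 8.4. vit-2 read 1.58 and 1.81 on the controls and 10.23, 10.08 and 10.08 on the treated arrays. vit-6, on another chromosome from the rest, read 1.64 and 1.7 and 10.67, 10.71 and 10.82. No overlap was seen for either, as for 34.9% of tested clusters on the higher and 40.5% on the lower side, and the changes were 8.43 (SE 0.14, adjusted p = 2.78e-07) and 9.06 (SE 0.13, adjusted p = 2.78e-07) by limma. Because the controls were at the floor, the size of these changes depends on the background of the arrays. vit-3, vit-4 and vit-5 are near-identical copies, so probes may be shared and single members are uncertain. F57C2.4, an uncharacterised protein-coding gene, changed by 9.21 and D1054.10 by 8.19, the largest changes outside yolk and collagens, with controls at 1.45 and 1.54 and 1.5 and 1.27.

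Oocyte regulators rose without exception. All 19 tested genes of oocyte and maternal RNA control were higher, with a median change of 5.41. rme-2, the yolk receptor of the oocyte, read 1.59 and 1.71 on the controls and 7.97, 7.66 and 8.07 on the treated arrays, a change of 6.25 (SE 0.16, adjusted p = 3.81e-07, limma). oma-1, an RNA-binding protein of oocyte maturation, read 2.27 and 1.81 and 7.46, 6.99 and 7.15. Both genes were at or near the floor in the controls and well above it in every treated library. puf-5 (7.07) and puf-3 (6.0), Pumilio-type repressors of oocyte mRNAs, and pos-1 (6.55), a maternal zinc finger protein of early cell fate, had the largest changes of the list. lin-41, which keeps oocytes from cycling too early and also acts in larval timing, was already at 6.84 and 7.03 on the controls and rose by only 0.75 (adjusted p = 0.00251, limma).

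The eggshell is built by the fertilised oocyte from chitin, chondroitin proteoglycans and a lipid barrier, and 14 of 15 tested genes of that list rose (median 5.5). The chondroitin proteoglycan gene cpg-2 read 3.34 and 2.69 on the controls and 10.30, 10.17 and 10.21 on the treated arrays. The chitin synthase chs-1 read 2.48 and 2.37 and 8.16, 8.11 and 7.81. No control array came within 5 log2 units of a treated one for either gene, and the changes were 7.21 (adjusted p = 4.40e-07) and 5.61 (adjusted p = 4.22e-07) by limma. cpg-1 changed by 7.21, cpg-3 by 7.38, the vitelline layer protein gene cbd-1 by 6.27 and perm-4, a gene of the permeability barrier, by 6.5. A pair of cytochrome P450 genes known to act in eggshell lipids rose as well: cyp-31A3 changed by 4.67 (adjusted p = 6.08e-07) and its near copy cyp-31A2 by 2.23 (adjusted p = 7.55e-05), by limma.

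Sperm genes rose more unevenly. Of 79 tested sperm genes (91 were on the arrays), 67 were higher and none was lower, with a median change of 1.66, far below that of oocyte genes. Major sperm protein genes, which encode the cytoskeletal protein of the crawling sperm, were at the top: msp-40 read 2.03 and 1.53 on the controls and 9.31, 9.25 and 9.31 on the treated arrays (7.51, SE 0.17, adjusted p = 3.23e-07, limma). msp-45 changed by 7.22 and nspd-10, of a nematode family of small sperm peptides, by 6.63. These families have many near-identical copies, so the members are not independent and the probe of one may read another. gsp-3, a phosphatase of sperm chromatin and motility, read 2.31 and 1.61 and 4.91, 4.4 and 5.37, and spe-36, a secreted sperm protein of fertilisation, changed by 1.35. spe-9, a sperm surface protein, read 1.78 and 1.65 on the controls and 1.89, 1.88 and 1.68 on the treated arrays (adjusted p = 0.538, limma). Its groups were both near the floor.

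Germ cells carry P granules, cytoplasmic bodies rich in RNA and Argonaute proteins, and all 18 tested genes of that list rose (median 3.73). pgl-1, a scaffold of these granules, read 3.03 and 2.47 on the controls and 7.27, 7.74 and 7.4 on the treated arrays, a change of 4.73 (SE 0.22, adjusted p = 2.51e-06, limma). glh-1, a Vasa-type helicase, changed by 3.78, the Piwi protein gene prg-1 by 4.99, deps-1 by 5.27 and the Argonaute gene wago-1 by 6.28. Meiosis followed the same direction in all 37 tested genes (median 3.09). him-3, a protein of the meiotic chromosome axis, read 1.73 and 1.43 and 8.32, 8.35 and 8.14, and the axis gene htp-2 and the crossover gene zhp-1 changed by 4.96 and 5.24. rec-8, the meiotic cohesin, changed by 4.03 (adjusted p = 2.05e-06, limma). In whole animals, more germ cells and more RNA per germ cell cannot be told apart.

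Regulators of germ stem cells and of the sperm or oocyte choice rose or did not pass. Of 18 tested, 13 rose and none fell (median 1.58). The Notch receptor gene glp-1, which keeps germ stem cells dividing, read 2.56 and 2.39 on the controls and 5.56, 5.64 and 5.55 on the treated arrays (3.11, adjusted p = 1.53e-06, limma). gld-3, fog-2 and puf-8, translational regulators of germ cell fate, changed by 5.35, 4.93 and 4.46. fog-3, needed for germ cells to become sperm, read 1.76 and 1.78 and 1.62, 2.29 and 1.93 (adjusted p = 0.477, limma). Its arrays overlapped and stayed close to the floor in both groups.

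Genes of DNA replication and cell division moved as completely. All 29 tested replication genes rose (median 2.38), as did all 40 cell division genes (median 2.59). mcm-2, a subunit of the replicative helicase, read 5.43 and 5.57 on the controls and 7.67, 7.78 and 7.75 on the treated arrays. pcn-1, the sliding clamp PCNA, read 5.38 and 5.19 and 8.01, 7.53 and 7.85. Controls had clear signal for both, so these changes, 2.24 (SE 0.13) and 2.51 (SE 0.17), do not start from the floor. The origin genes orc-5 and orc-1 changed by 4.32 and 3.97, and the clamp loader gene rfc-3 by 3.32. Among division genes, cyclin B (cyb-1) changed by 4.33, the Aurora B kinase gene air-2 by 3.35, the germline anillin gene ani-2 by 5.3 and the centromeric histone gene hcp-3 by 3.98.

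Core histones did not follow. Of 42 tested histone clusters, 8 rose and 23 fell (median -0.44). Variant histones differed in direction: his-74, an H3.3 gene, read 2.99 and 1.93 on the controls and 7.65, 7.55 and 7.57 on the treated arrays, while his-71, another H3.3 gene, read 7.23 and 7.12 and 5.05, 4.9 and 5.15. The changes were 5.13 (adjusted p = 6.04e-06) and -2.14 (adjusted p = 1.08e-05), by limma. The H3.3-type gene his-70 changed by 3.45 and htz-1, the H2A.Z gene, by 1.18, while the linker histone gene his-24 changed by -1.95. The replication-type gene his-54 fell from 6.12 and 5.72 to 1.68, 1.72 and 1.58. Core histone genes are near copies of each other, so single members are uncertain, and their messages lack poly(A) tails, which makes them sensitive to how cDNA is primed.

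Zygotic genes, which are switched on in embryos, were near the floor or went the other way. Of 19 tested, 2 rose and 12 fell (median -0.96). The endoderm gene end-1 read 1.91 and 1.81 on the controls and 1.66, 1.66 and 1.54 on the treated arrays (adjusted p = 0.14, limma), and ceh-51, of the mesoderm founder, 1.59 and 1.39 and 1.78, 2.07 and 1.9 (0.43, adjusted p = 0.0358). The ceh-51 call was lost without any one of control replicates 1 and 2 and treated replicates 2 and 3 (adjusted p from 0.0509 to 0.169, limma). A set of 7 embryo markers includes end-1 and ceh-51. Of the 7, end-3, tbx-37 and tbx-38 were below the filter. The mean of the 7 was 1.61 to 1.79 in control and 1.43 to 1.58 in treated animals. pal-1, a Caudal homeobox gene stored as maternal RNA, rose by 2.48. The posterior Hox genes nob-1 and php-3, which are also used in larvae, changed by -2.73 and -3.33.

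**Figure D2:**
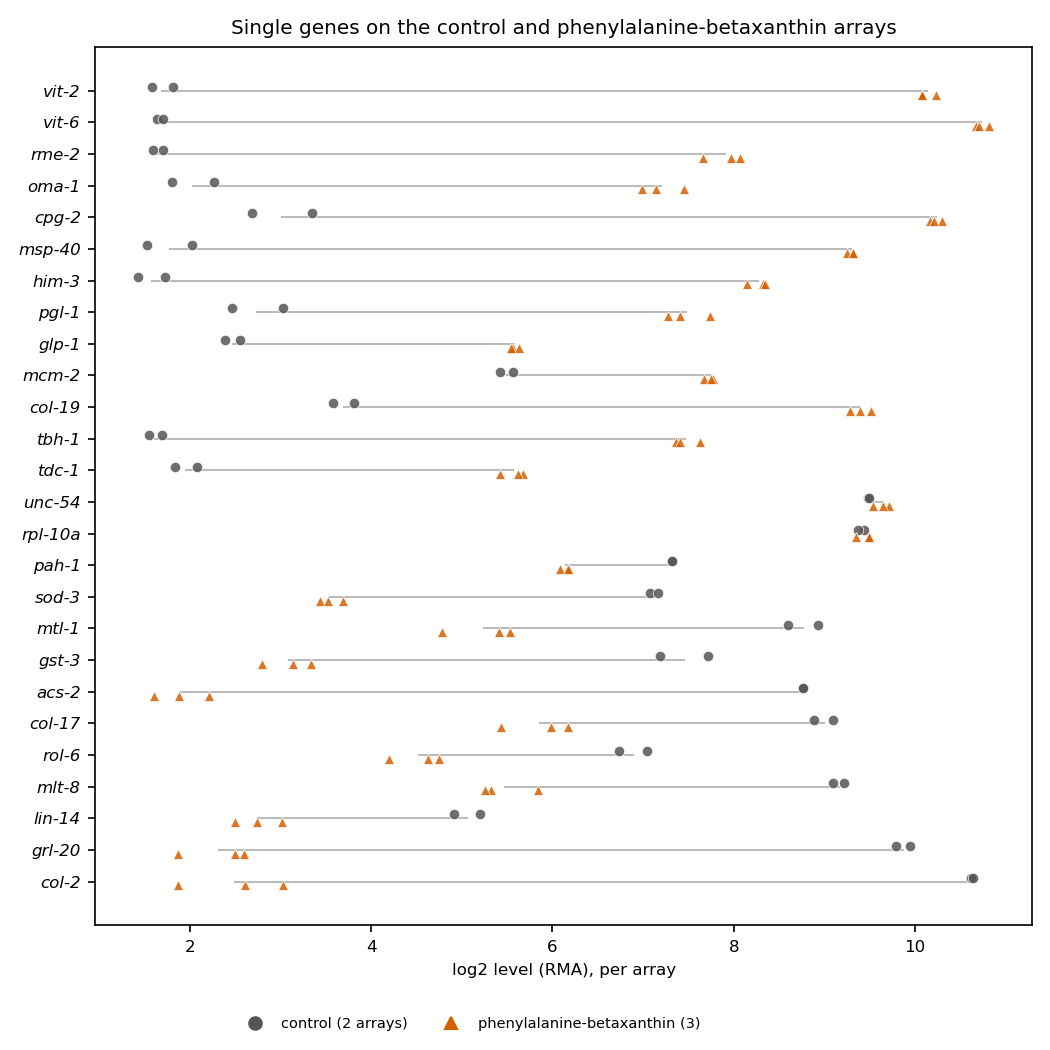
Log2 level (horizontal axis) of 26 genes on the 2 control arrays (grey circles) and 3 phenylalanine-betaxanthin arrays (orange triangles), with a grey line joining the group means. Germ-line and yolk genes and the adult collagen gene col-19 lie to the right in the treated arrays. The other cuticle genes and the moulting genes lie to the left, and unc-54 and rpl-10a stay within 1 log2 unit.

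Skin genes formed the opposite pole. Of 35 tested moulting genes, 30 fell and 1 rose, with a median change of -2.16. mlt-8, named for its moulting defect, read 9.22 and 9.09 on the controls and 5.32, 5.25 and 5.84 on the treated arrays. lpr-3, a lipocalin of the apical matrix, read 9.04 and 9.13 and 4.85, 4.68 and 5.81. Neither gene overlapped between the groups, and the changes were -3.69 (SE 0.2, adjusted p = 5.31e-06) and -3.97 (SE 0.32, adjusted p = 3.22e-05) by limma. The matrix gene noah-2 changed by -3.23, mlt-10 by -1.65, and the nuclear receptor gene nhr-25, which drives moulting, by -2.73. nhr-23, the other main receptor of the moulting cycle, read 7.35 and 7.39 and 7.22, 6.79 and 7.0 and did not pass (adjusted p = 0.0817, limma, and 0.043 without treated replicate 1). The single member that rose was nas-37, a protease that opens the old cuticle (0.47, adjusted p = 0.0191, limma), a call lost without control replicate 1, control replicate 2 or treated replicate 3 (adjusted p = 0.0812, 0.053 and 0.0501).

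The hedgehog-related list holds secreted cysteine-rich proteins of the worm skin and glia, and Patched-type receptors. Of its 77 tested members 61 fell and 2 rose (median -1.54). The ground-like gene grl-20 read 9.95 and 9.8 on the controls and 1.87, 2.6 and 2.5 on the treated arrays, a change of -7.55 (SE 0.23, adjusted p = 5.56e-07, limma). grl-23 (-7.49) and grl-19 (-7.2) were close behind. For these 3 genes the treated arrays lay at the floor. The milder members were the groundhog gene grd-10 (-1.63) and the warthog gene wrt-4 (-1.55). The 2 that rose were the Patched-type receptor genes ptc-1, which acts in germ-line cytokinesis, and ptr-2 (1.02 and 1.63).

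Cuticle collagens split in both directions. Of 143 tested col genes, 37 rose and 82 fell (median -1.15). col-19, the classical adult collagen, read 3.58 and 3.82 on the controls and 9.51, 9.4 and 9.28 on the treated arrays (5.7, SE 0.14, adjusted p = 3.67e-07, limma). Larger rises belonged to col-143 (8.62), col-119 (7.83) and col-81 (7.76), all near the floor in controls. In the other direction, col-2 read 10.62 and 10.64 and 2.61, 3.03 and 1.87, the largest fall of any protein-coding gene (-8.13, SE 0.31, adjusted p = 1.17e-06, limma). col-37, col-123, col-36 and col-158 changed by -7.2, -7.15, -7.13 and -6.81. col-17, a larval collagen, changed by -3.13.

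Collagens that give the body its shape fell in 16 of 21 tested genes and rose in 2 (median -2.44). rol-6 read 7.04 and 6.74 on the controls and 4.63, 4.2 and 4.75 on the treated arrays (-2.36, adjusted p = 3.89e-05, limma), and dpy-7 6.29 and 6.27 and 3.64, 4.22 and 4.3. Both are furrow or shape collagens made in each larval cycle, and their groups did not overlap. rol-8, dpy-3 and dpy-9 changed by -4.25, -4.23 and -3.54. The blister collagen genes bli-6 and bli-2 were the 2 that rose (5.04 and 0.74), with bli-2 at an adjusted p of 0.0512 (limma) without control replicate 1. bli-1, a strut collagen of the adult cuticle, read 2.03 and 1.82 and 2.21, 3.17 and 2.46 (adjusted p = 0.0615, limma, and 0.0294 without treated replicate 1).

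Heterochronic genes set which larval stage a cell follows, and 12 of 18 tested fell while 4 rose (median -0.94). These shares, 66.7% and 22.2%, stand beside 32.8% and 28.5% of all clusters. lin-14, a transcription factor of early larval fates, read 4.92 and 5.2 on the controls and 2.74, 2.5 and 3.02 on the treated arrays (-2.31, adjusted p = 3.35e-05, limma). hbl-1, which holds back later fates, changed by -2.3, the receptor gene daf-12 by -2.12, the Period-related oscillator gene lin-42 by -2.77 and lin-29, the effector of the adult switch, by -1.19. lin-28 read 2.87 and 2.87 and 2.91, 2.97 and 2.47, with overlapping arrays (adjusted p = 0.706, limma). lin-41 and nhl-2 (1.48), which also work in the germ line, and lep-2 (1.37) were among those that rose.

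Neuronal genes fell across most classes. FMRFamide-like neuropeptide genes fell in 24 of 31 tested and rose in 0 (median -1.23), and nlp neuropeptide genes fell in 48 of 65 and rose in 1 (median -1.4). The single nlp gene that rose, nlp-5 (0.61), did not pass without control replicate 1 (adjusted p = 0.0534, limma), and 2 rose without control replicate 2 or with quantile normalization. flp-7 read 7.0 and 6.8 on the controls and 3.4, 3.26 and 3.38 on the treated arrays, and nlp-12, a cholecystokinin-like peptide, 9.81 and 9.78 and 7.14, 7.16 and 7.29. Their groups did not overlap and the changes were -3.56 (adjusted p = 1.14e-06) and -2.6 (adjusted p = 3.11e-06), by limma. The peptide-processing enzymes egl-3 (-1.94) and egl-21 (-2.02), and the dense-core vesicle genes ida-1 (-2.18) and sbt-1 (-2.33), moved with their substrates. In the whole synapse list, 19 of 30 fell and 3 rose (median -0.85).

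The exceptions in that list are known outside neurons. tbh-1, which makes octopamine from tyramine and is used in the gonadal sheath as well as in neurons, read 1.69 and 1.55 on the controls and 7.36, 7.63 and 7.4 on the treated arrays (5.84, SE 0.14, adjusted p = 3.26e-07, limma). tdc-1, the tyrosine decarboxylase upstream of it with the same sites of use, read 2.08 and 1.84 and 5.42, 5.67 and 5.62 (3.61). The last of them, ric-8, a G protein regulator also used in embryonic spindles, changed by 0.94. Touch receptor genes fell in 9 of 13 and rose in 1, with the tubulin genes mec-7 (-2.66) and mec-12 (-2.34) and the tubulin acetyltransferase gene mec-17 (-2.31) among those that fell, and mec-15, an F-box gene, the 1 that rose (2.17). Chemosensory genes fell in 9 of 24, or 37.5% beside 32.8% of all clusters, and rose in 0, a median change of -0.29. The gene tax-4, a channel of smell and taste, read 1.54 and 1.46 and 1.57, 1.58 and 1.57, at the floor.

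Body wall muscle genes fell in 24 of 32 tested and rose in 2, but by less (median -0.79). The number that rose was 1 without control replicate 1 or any single treated replicate, and 5 with arrays centred. unc-54, the main myosin heavy chain, read 9.49 and 9.49 on the controls and 9.54, 9.71 and 9.65 on the treated arrays (adjusted p = 0.362, limma). The second myosin, myo-3, changed by -0.73, and the attachment genes unc-96, unc-95 and deb-1 (vinculin) by -1.74, -1.53 and -1.46. unc-22, encoding twitchin, rose by 0.59. Pharyngeal genes fell in 8 of 14 and rose in 1 (median -0.53), with myo-1 at -0.94 and myo-2, which did not pass, at -0.2 (adjusted p = 0.36, limma). The 1 that rose, the troponin gene tni-4 (0.78), did not pass without control replicate 1 (adjusted p = 0.0826, limma). Without treated replicate 1 the number that rose was 2, and with arrays centred 2 rose and 5 fell. A set of tissue markers overlaps the lists above and is no separate evidence. In it, 5 of 5 oocyte and 5 of 5 germ-line markers rose. Of the sperm markers 3 of 6 rose and 0 fell. In the soma 6 of 7 neuronal, 4 of 5 skin, 3 of 5 intestinal and 3 of 5 body wall muscle markers fell. Of 4 tested pharyngeal markers 2 fell and 1 rose, and of 4 tested embryo markers 1 fell and 1 rose.

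Somatic tissues form a smaller part of the RNA when the germ line is large, and the submitters' notes give quantile normalization of the arrays. The median level over all clusters was still 2.17 and 2.12 on the controls and 1.94, 1.98 and 1.97 on the treated arrays. The germ-line marker mean was 1.92 to 2.28 in control and 6.43 to 6.58 in treated animals, while the neuronal marker mean was 7.32 to 7.46 and 5.83 to 6.05. How much of the neuronal and muscle change moves with that share was not tested.

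**Figure D3:**
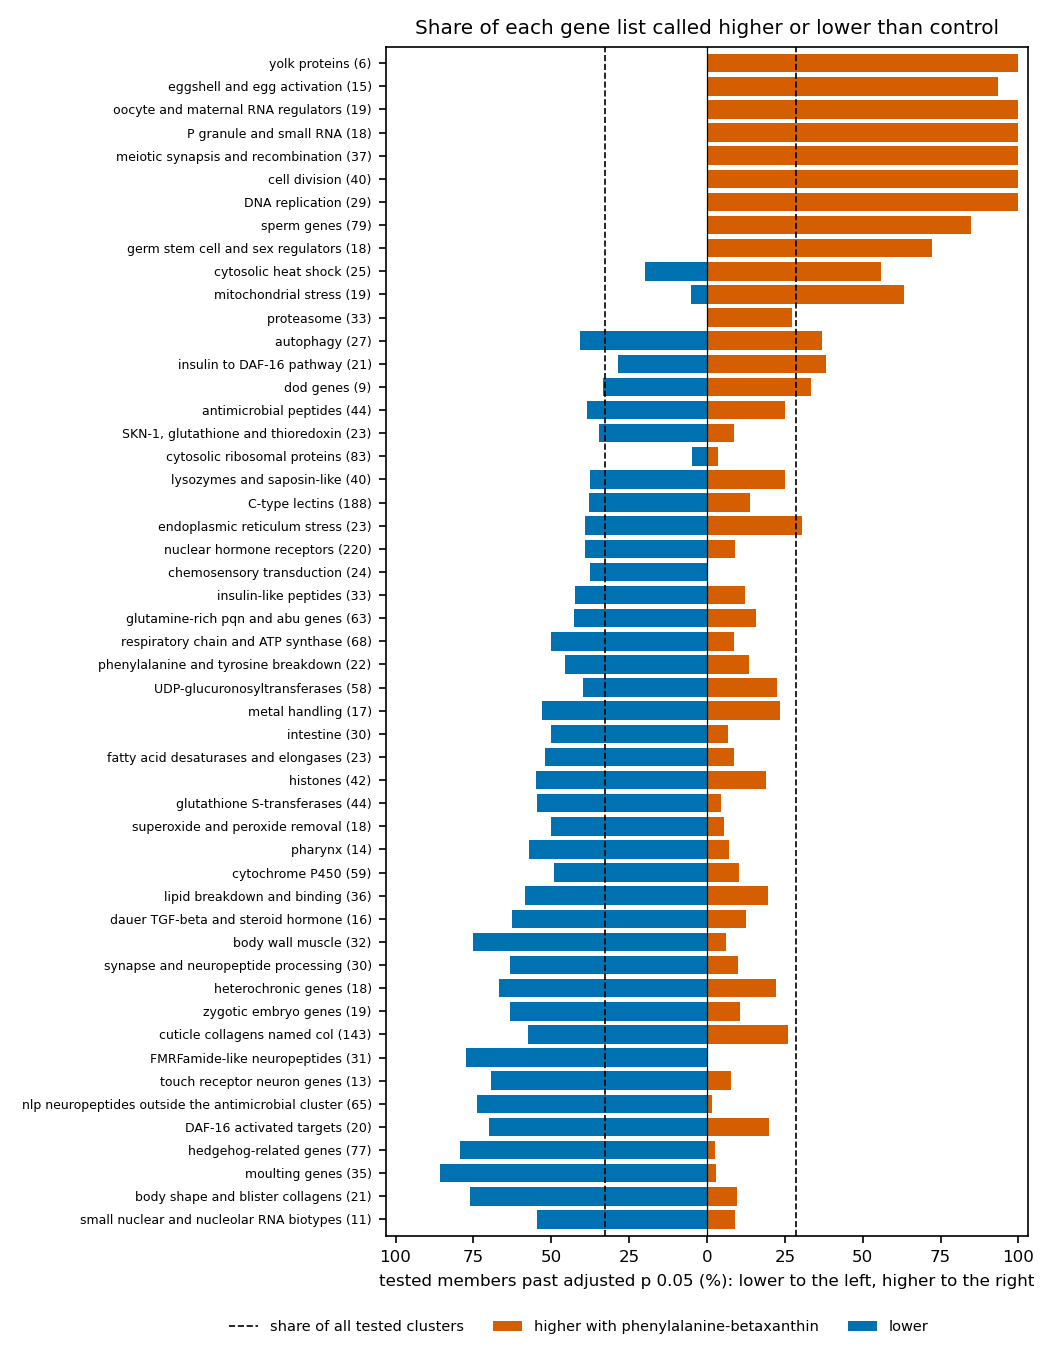
Percent of the tested members of each of 51 gene lists (number tested in parentheses) that were called higher (orange, to the right) or lower (blue, to the left) than control by limma at an adjusted p of 0.05, ordered by median log2 change. Dashed lines give the shares over all tested clusters, 28.5% higher and 32.8% lower.

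Intestinal genes other than yolk fell in 15 of 30 and rose in 2 (median -0.39). elt-2, the GATA factor of the intestine, read 7.16 and 7.67 on the controls and 5.82, 5.77 and 5.87 on the treated arrays (-1.6, adjusted p = 0.000144, limma). The gut esterase gene ges-1 changed by -1.18, the intermediate filament gene ifc-1 by -2.62 and the cathepsin gene cpr-4 by -3.58. The peptide transporter gene pept-1 (0.74) and the lysozyme gene lys-8 (0.71) rose. On the same whole-animal arrays yolk messages were higher and elt-2 messages lower. Levels within the intestine were not measured.

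The compound carries phenylalanine, and the enzymes that break phenylalanine and tyrosine down were examined in order. Of 22 tested genes of the list, 10 fell and 3 rose (median -0.35), or 45.5% lower and 13.6% higher, against 32.8% and 28.5% over all clusters. pah-1, phenylalanine hydroxylase, read 7.32 and 7.32 on the controls and 6.18, 6.08 and 6.18 on the treated arrays (-1.18, SE 0.12, adjusted p = 0.000115, limma). The next step, the tyrosine aminotransferase gene tatn-1, read 7.47 and 7.7 and 7.48, 7.19 and 7.36 (adjusted p = 0.198, limma), with overlapping groups. hpd-1 changed by -0.35 without passing (adjusted p = 0.0523, limma), while hgo-1 (-0.82) and fah-1 (-0.45), the last enzymes, fell. The call of fah-1 was lost without control replicate 1 and without treated replicate 1 or 2 (adjusted p = 0.0843, 0.057 and 0.0532, limma), and hpd-1 passed without treated replicate 3 (0.0488). For the cofactor of the hydroxylase, ptps-1 rose by 1.11 and gfrp-1, the feedback regulator of its synthesis, fell by 1.75. amx-2, a monoamine oxidase gene, changed by -1.78 and the tyrosinase gene tyr-2 by -1.85. pah-1 was at 6.08 on indicaxanthin array 3.

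Fat metabolism held one of the largest single falls. acs-2, an acyl-CoA synthetase of mitochondrial fat burning, read 8.77 and 8.77 on the controls and 2.22, 1.89 and 1.61 on the treated arrays (-6.86, SE 0.19, adjusted p = 4.22e-07, limma), and was at 2.39 on indicaxanthin array 3. In the list of lipid breakdown and binding, 21 of 36 fell and 7 rose (median -0.68). The lysosomal lipase genes lipl-3 and lipl-4 changed by -3.33 and -1.09. atgl-1, the main lipase of fat droplets, rose by 1.09, with its partner lid-1 by 1.38 and the binding protein gene lbp-9 by 1.37. Among desaturases and elongases, 12 of 23 fell and 2 rose: elo-4 changed by -4.45, fat-5 by -1.62 and fat-6 by -0.56, and elo-7 (2.29) and elo-8 (1.68) rose. fat-7, a stearoyl-CoA desaturase, read 7.55 and 7.61 and 7.63, 7.19 and 7.13 (adjusted p = 0.245, limma), and passed without treated replicate 1 (0.0483). fat-6 was lost without control replicate 2 (adjusted p = 0.0796, limma).

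Antioxidant enzymes were lower or did not pass, with 1 exception. Of 18 tested genes for superoxide and peroxide removal, 9 fell and 1 rose (median -0.49). sod-3, the manganese superoxide dismutase used as a reporter of DAF-16 activity, read 7.07 and 7.16 on the controls and 3.44, 3.53 and 3.69 on the treated arrays. The groups were more than 3 log2 units apart (-3.57, SE 0.14, adjusted p = 1.19e-06, limma), and indicaxanthin array 3 read 3.23. The catalase genes ctl-1 and ctl-2 changed by -1.28 and -1.62. sod-1, the copper and zinc enzyme, read 8.35 and 8.23 and 8.06, 7.94 and 8.06 (adjusted p = 0.106, limma), and prdx-6 was the 1 that rose (0.42). That call was lost without either control (adjusted p = 0.063 and 0.128, limma) and without treated replicate 1 or 2 (0.0916 and 0.0843).

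SKN-1 is the worm's Nrf factor, and 8 of the 23 tested genes around it fell and 2 rose. The share that fell, 34.8%, was near the 32.8% of all clusters, and the share that rose, 8.7%, was below 28.5%. The regulator skn-1 read 6.88 and 7.09 on the controls and 6.78, 6.55 and 6.75 on the treated arrays (adjusted p = 0.112, limma). Its target gcs-1, which limits glutathione synthesis, read 7.07 and 7.27 and 7.28, 7.2 and 7.21 (adjusted p = 0.723), and its reporter target gst-4 read 7.5 and 7.77 and 5.7, 5.95 and 5.95 (-1.77, adjusted p = 4.72e-05, limma). Only the last of these 3 passed. The intestinal thioredoxin gene trx-3 and the methionine sulfoxide reductase gene msra-1 changed by -3.38 and -1.95, and the glutaredoxin genes glrx-21 and glrx-5 rose by 0.72 and 0.69, the former with an adjusted p of 0.0528 by limma without control replicate 1.

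Among detoxification families the glutathione S-transferase and cytochrome P450 genes had more lower calls than all clusters, and the UDP-glucuronosyltransferase shares, 39.7% lower and 22.4% higher, lay nearer to the background of 32.8% and 28.5%. Glutathione S-transferase genes fell in 24 of 44 and rose in 2 (median -0.48), cytochrome P450 genes fell in 29 of 59 and rose in 6 (-0.59), and UDP-glucuronosyltransferase genes fell in 23 of 58 and rose in 13 (-0.35). gst-3 read 7.19 and 7.72 on the controls and 3.14, 3.34 and 2.8 on the treated arrays (-4.36, adjusted p = 3.72e-06, limma), and gst-44 and gst-35 changed by -3.72 and -2.65. cyp-35B1, known as a target of DAF-16, read 8.68 and 8.96 and 4.05, 4.82 and 4.46 (-4.38, adjusted p = 4.71e-06, limma). cyp-37A1 and cyp-34A9 changed by -2.35 and -2.02, and cyp-44A1, a mitochondrial type, rose by 1.52. The glucuronosyltransferase genes ran from -3.53 for ugt-38 to 2.59 for ugt-22. Nuclear hormone receptor genes fell in 86 of 220 and rose in 20 (median -0.28), or 39.1% and 9.1%, beside 32.8% and 28.5% of all clusters. Among them were nhr-3 (-3.33), nhr-57 (-2.79), the fat regulators nhr-80 (-1.58) and nhr-49 (-0.61), and, rising, nhr-76 (2.5) and nhr-6 (1.97). nhr-49 did not pass without either control (adjusted p = 0.0683 and 0.0929, limma). Without control replicate 2 the UDP-glucuronosyltransferase counts were 8 higher and 7 lower. Without control replicate 1, and without treated replicate 2, 8 of them were higher. The count of receptors that rose was 9 without control replicate 1 and 13 without treated replicate 1.

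Heat shock genes rose in 14 of 25 and fell in 5 (median 0.47). hsf-1, the heat shock transcription factor, read 5.3 and 5.48 on the controls and 6.87, 6.81 and 6.7 on the treated arrays (1.4, adjusted p = 7.51e-05, limma). hsp-16.2, an inducible small chaperone whose near copies may share probes, read 2.24 and 2.29 and 3.31, 4.16 and 4.28 (1.65, adjusted p = 0.00161, limma). The inducible hsp-70 did not pass, at 1.82 and 1.59 and 1.82, 1.73 and 2.12 (adjusted p = 0.37, limma). The largest rise was sip-1, a small heat shock protein known from embryos (3.5), and the largest fall hsp-12.3 (-3.39). Without control replicate 2 the number that fell was 3.

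Organelle stress lists were mixed. In the endoplasmic reticulum list 7 of 23 rose and 9 fell, or 30.4% and 39.1%, beside 28.5% and 32.8% of all clusters. The chaperone gene hsp-4 (BiP) changed by 0.69, the sensor gene atf-6 by -1.49, xbp-1 by -0.61 and the collagen-folding enzyme gene pdi-2 by -1.33. In the mitochondrial list 12 of 19 rose and 1 fell (median 0.4). The chaperone genes hsp-6 and hsp-60 changed by 0.49 and 0.67, both under 1 log2 unit (hsp-6 with an adjusted p of 0.0632 without control replicate 1, limma), and the protease gene lonp-1 by 1.12. The larger rises were the chromatin regulators lin-65 (2.33) and met-2 (1.78), and dve-1 was the 1 that fell (-1.16). Without control replicate 1 the counts that rose were 3 and 7, and without treated replicate 1 that of the endoplasmic reticulum list was 4.

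Insulin signalling holds back DAF-16, the FOXO factor of long life. Of 21 tested pathway genes 8 rose and 6 fell, or 38.1% and 28.6%, beside 28.5% and 32.8% of all clusters. The receptor gene daf-2 read 3.87 and 4.35 on the controls and 4.77, 4.59 and 4.71 on the treated arrays (0.58, adjusted p = 0.0212, limma), and the FOXO gene daf-16 itself 6.04 and 6.35 and 6.02, 5.94 and 5.9 (adjusted p = 0.192, limma). The call of daf-2 was lost without control replicate 1 (adjusted p = 0.117) and without treated replicate 1 or 3 (0.067 and 0.0543, limma), and the lower count of the pathway was 3 without control replicate 2. Among other pathway members that passed, the kinase gene age-1 changed by 1.64, the cofactor gene hcf-1 by 1.75 and the 14-3-3 gene ftt-2 by -1.43. Direct and classical DAF-16 activated targets fell in 14 of 20 and rose in 4 (median -1.43). Beside sod-3 and the catalases, the metallothionein gene mtl-1 changed by -3.52, dod-3 by -3.41 and the glyoxylate enzyme gene icl-1 by -2.02, while sip-1 and lea-1 (2.07) rose. The remaining dod genes (downstream of daf-16) went both ways, with dod-23 at 4.22, dod-24 at 1.03 and dod-20 at -1.71.

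Insulin-like peptide genes fell in 14 of 33 and rose in 4 (median -0.3). ins-35 read 7.99 and 7.93 on the controls and 3.12, 3.19 and 2.76 on the treated arrays, and ins-33, a larval peptide, 6.25 and 6.33 and 2.26, 1.94 and 2.24. Both groups stood apart, with changes of -4.94 and -4.15. Without control replicate 1 the number of peptide genes that fell was 9. ins-23 (3.18) and ins-7 (2.05), an agonist of the receptor, rose from near the floor. Dauer pathway genes, which decide on larval arrest through TGF-beta and steroid signals, fell in 10 of 16 and rose in 2 (62.5% and 12.5%). The ligand gene daf-7 changed by -1.39, the Smad gene daf-8 by -1.6, the hormone enzyme gene daf-9 by -0.94 and daf-36 by 0.58.

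Metal-handling genes fell in 9 of 17 and rose in 4, or 52.9% and 23.5%, beside 32.8% and 28.5% of all clusters. mtl-1 read 8.6 and 8.92 on the controls and 5.42, 5.53 and 4.78 on the treated arrays (-3.52, SE 0.24, adjusted p = 1.59e-05, limma). mtl-2 read 5.44 and 5.49 and 4.7, 4.69 and 4.3 (-0.9, adjusted p = 0.00209). On indicaxanthin array 3 both were lower than on any treated array, at 3.15 and 2.91. cdr-4, a cadmium-responsive transferase gene, changed by -2.67 and the zinc transporter gene cdf-2 by -1.28. smf-3, an iron and manganese importer gene, pcs-1, the phytochelatin synthase gene, and the zinc exporter gene ttm-1 rose by 1.44, 1.37 and 1.12, and ferritin ftn-1 did not pass (0.1, adjusted p = 0.595, limma).

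Immune families were spread in both directions. C-type lectin genes fell in 71 of 188 and rose in 26 (median -0.16), lysozyme and saposin-like genes fell in 15 of 40 and rose in 10, and antimicrobial peptide genes fell in 17 of 44 and rose in 11. The shares of the last 2 families lie near those of all clusters, 28.5% higher and 32.8% lower, while 13.8% of the lectin genes rose. clec-60, a gut lectin induced by bacteria, read 10.36 and 10.42 on the controls and 6.1, 5.61 and 5.74 on the treated arrays, and its neighbour by name clec-61 8.3 and 8.53 and 2.8, 2.37 and 2.77. The changes were -4.57 and -5.77. clec-87 and clec-88 rose by 5.84 and 5.31, and clec-209 by 4.23. The caenacin genes split, with cnc-7 at 4.48, cnc-2 at 2.3 and cnc-3 at -1.93. Without control replicate 1 the counts that rose were 6 lysozyme or saposin-like and 7 antimicrobial genes, and the former was 6 without treated replicate 1 or 3. The lysozyme gene lys-7 did not pass (adjusted p = 0.158, limma).

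Cytosolic ribosomal protein genes had few calls. Of 83 tested 3 rose and 4 fell (median -0.14, which turned positive with arrays centred or quantile normalized again), and rpl-10a read 9.43 and 9.37 on the controls and 9.49, 9.35 and 9.5 on the treated arrays. The exceptions included a pair of paralogs that went opposite ways. rpl-11.1 read 8.08 and 7.57 and 10.89, 10.75 and 10.68, a change of 2.95 (adjusted p = 9.01e-06), while rpl-11.2 read 10.82 and 10.66 and 9.73, 9.62 and 9.77, a change of -1.04 (adjusted p = 0.00031), by limma. Respiratory chain genes fell in 34 of 68 and rose in 6 (median -0.34), and again the paralogs parted: ucr-2.3 changed by 4.15 and ucr-2.1 by -1.22. asb-1, the germ-line form of an ATP synthase subunit, rose by 1.56, and gas-1 and sdha-1, of complexes I and II, changed by -1.07 and -1.56. Proteasome genes rose in 9 of 33, or 27.3% beside 28.5% of all clusters, and fell in 0, beside 32.8%. The rises were led by the paralog rpn-6.2 (3.3), with the others under 1 log2 unit. Autophagy genes rose in 10 of 27 and fell in 11, or 37% and 40.7%, beside 28.5% and 32.8% of all clusters. The TFEB factor gene hlh-30 was at -1.46, atg-2 at -1.91 and the adaptor gene sqst-1 at -1.31. Counts of these small changes rested on single arrays: without control replicate 1, 16 respiratory genes fell, 5 proteasome genes rose, and 2 autophagy genes rose and 7 fell. Without control replicate 2, 6 autophagy genes fell, and without treated replicate 1, 6 rose. The proteasome count was 5 without treated replicate 1 or 3.

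Non-coding clusters that passed the test were mostly lower, with 1449 lower and 91 higher. Of 3654 tested non-coding clusters 39.7% fell and 2.5% rose, against 31.4% and 34.7% of 16186 protein-coding ones. In the biotypes of ribosomal, small nuclear and small nucleolar RNA 6 of 11 fell and 1 rose. The 5S ribosomal RNA gene rrn-4.2 read 10.40 and 9.65 on the controls and 3.23, 3.9 and 4.29 on the treated arrays (-6.22, SE 0.34, adjusted p = 5.56e-06, limma). rrn-4.4 and rrn-4.5, copies of the same RNA that likely share probes, changed by -6.23 and -5.81, and indicaxanthin array 3 read 3.55 for rrn-4.2. RNA cleanup and priming also set the level of short RNAs, and their part was not tested.

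Calls were uneven over the chromosomes. On the X chromosome, whose genes are largely silent in the germ line of worms, 12.4% of 2334 tested protein-coding clusters rose and 48.2% fell (median change -0.408). On chromosome I 48.1% of 2514 rose and 21.8% fell (median 0.378), and on chromosome III 46.3% of 2368 rose and 24.4% fell (median 0.284). Chromosomes II and IV lay between, with 37.1% and 41.3% rising and 28.8% and 28.1% falling. Chromosome V, rich in large environmental gene families, had 25.2% of 3549 rising and 36.2% falling (median -0.127). Among the clusters that rose on X were 5 of the 6 yolk genes, which are made by the intestine.

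**Figure D4:**
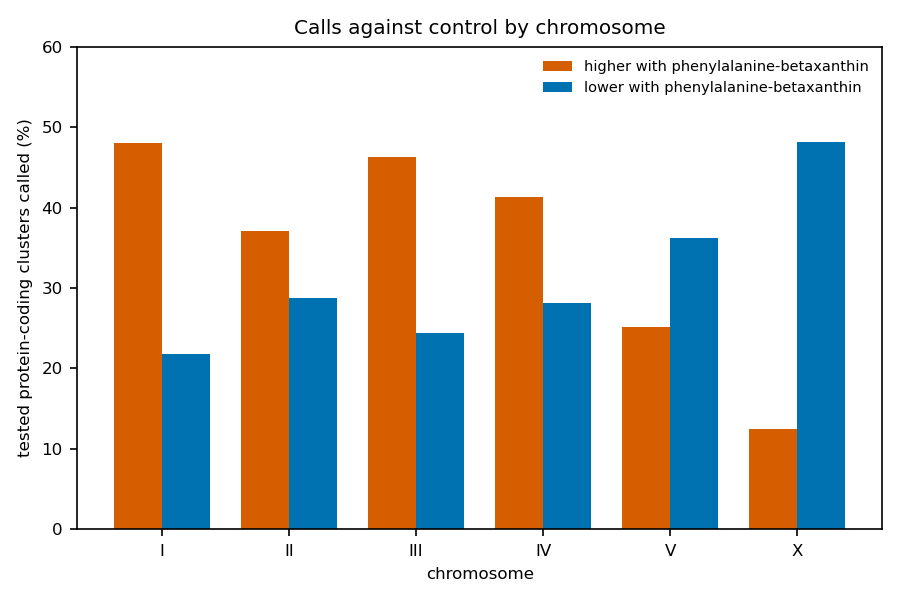
Percent of tested protein-coding clusters on each chromosome that were called higher (orange) or lower (blue) with phenylalanine-betaxanthin than in control, by limma at an adjusted p of 0.05. The X chromosome has the smallest share of higher calls, 12.4%, and the largest of lower calls, 48.2%.

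The 2 other betalains were given at the same dose and for the same time, and the groups were compared by label. Phenylalanine-betaxanthin and indicaxanthin share betalamic acid and differ in the amino acid, phenylalanine or proline, and in indoline carboxylic acid-betacyanin the partner is an indoline carboxylic acid. Both pairs that include phenylalanine-betaxanthin were compared, with all 11 arrays in 1 limma fit. Against indicaxanthin no cluster passed after adjustment within that pair (0% in each direction), with 3334 higher and 3302 lower at an unadjusted p under 0.05. Adjusted over both pairs together, 380 were higher and 548 lower. Without indicaxanthin replicate 3, the array that lay with the treated group, 5402 (26.6%) were higher and 5776 (28.5%) lower. The intervals were wide with all arrays: the difference was 5.27 for vit-2 (95% interval 0.98 to 9.57) and -2.5 for sod-3 (-4.66 to -0.34). For genes steady within both groups they were narrow, as for daf-16 at -0.11 (-0.46 to 0.25) and tatn-1 at -0.17 (-0.54 to 0.2). The pair can therefore not be ordered, and the outcome rests on 1 array.

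Against indoline carboxylic acid-betacyanin 4824 clusters (23.8%) were higher with phenylalanine-betaxanthin and 4768 (23.5%) lower, and adjusted over both pairs 4128 and 4151. All 6 yolk genes, 18 of 19 oocyte regulators and 35 of 37 meiosis genes were higher, and 26 of 35 moulting genes lower. The indoline carboxylic acid-betacyanin arrays lay on the side of the controls by stage markers. Their yolk means were 2.0, 3.17 and 1.67 and their moulting means 6.35, 6.33 and 6.37. Compound and developmental state therefore cannot be told apart in this pair either. The neuropeptide lists stood lower in 23 of 31 flp and 42 of 65 nlp genes. Body wall muscle was lower in 22 of 32. The yolk gene vit-2 read 2.9, 5.15 and 2.48 with indoline carboxylic acid-betacyanin, a difference of 6.62 (95% interval 2.32 to 10.92, adjusted p = 0.0358 over both pairs, limma). In that group array 2 was the highest. The spread came from the fit of all 11 arrays, where indicaxanthin array 3 read 10.26 for vit-2 beside 2.39 and 1.92 in its group. Without that array 11973 clusters differed in this pair, against 9592 with it, adjusted within the pair.

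Other lists changed sides when the reference was that betalain. Pharyngeal genes were higher in 7 of 14 and lower in 1, where against control 1 rose and 8 fell, and histones were higher in 21 of 42 and lower in 6. The pharyngeal troponin gene tni-4 read 2.88, 2.36 and 1.98 with indoline carboxylic acid-betacyanin and 5.76, 5.26 and 5.6 with phenylalanine-betaxanthin, a difference of 3.13 (95% interval 2.52 to 3.75, adjusted p = 0.000267 over both pairs, limma). The peptide transporter gene pept-1 read 2.25, 2.41 and 2.03 and 5.73, 5.47 and 5.77, a difference of 3.43 (2.92 to 3.94, adjusted p = 7.77e-05, limma). The lipase gene lipl-4 went the opposite way, at 6.04, 6.33 and 6.03 and 1.63, 1.94 and 1.96 (-4.29, -5.19 to -3.4, adjusted p = 0.000338, limma). The controls lay at 4.59 and 4.94, 4.83 and 5.01 and 2.75 and 3.12, closer to phenylalanine-betaxanthin for all 3 genes. hsp-70 was lower with phenylalanine-betaxanthin (-1.58, -2.14 to -1.01, adjusted p = 0.00395, limma), and fat-7 higher (1.9, 1.52 to 2.29, adjusted p = 0.000299, limma).

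Some collagens did not pass the test between these compounds: rol-6 differed by 0.6 (-0.92 to 2.11, adjusted p = 0.532, limma) and col-17 by 0.56 (-1.52 to 2.63, adjusted p = 0.683, limma). For rol-6 the indoline carboxylic acid-betacyanin arrays read 3.88, 3.84 and 4.07 and the phenylalanine-betaxanthin arrays 4.63, 4.2 and 4.75, without overlap. The spread of that fit includes indicaxanthin array 3, at 3.85 for rol-6 beside 6.72 and 6.77 in its group. The test can therefore not show that rol-6 was alike. Those intervals still allow differences of 2 log2 units. For cnc-2 the interval was narrower, 0.05 (-0.47 to 0.56), and for daf-16 -0.05 (-0.4 to 0.31).

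Genes whose 3 phenylalanine-betaxanthin arrays lay apart from every other array were few. With a gap of at least 1 log2 unit to the nearest of the other 8 arrays, 2 of 20291 clusters (0.00986%) were higher and none was lower, as a description without a test since the arrays chose them. drd-10, named as a gene lowered by dietary restriction, read 4.44, 6.26 and 5.44 on the treated arrays. It was at 1.45 and 1.36 in control, 1.61, 1.39 and 2.91 under indicaxanthin and 1.87, 1.7 and 1.79 under indoline carboxylic acid-betacyanin. Its treated arrays also spread the most, and the authors' deposited table gave it an unadjusted p of 0.008. Solving the authors' deposited tables for the third control gave 3.48 and 1.88 for drd-10, below every treated array but above both other controls. K12B6.11, an uncharacterised gene, read 3.91, 4.44 and 4.42 on the treated arrays, against 2.15 and 2.25 in control and 2.14, 2.68 and 2.39 under indicaxanthin. For K12B6.11 the authors' deposited tables implied 4.33 and 4.42 in the third control, level with the treated arrays.

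A narrower gap of 0.5, chosen after seeing the data, gave 14 clusters higher and 12 lower. Among the higher were dct-8 (treated 6.31, 7.21 and 6.49, highest other array 5.52), the BTB domain gene bath-28, the sodium and calcium exchanger gene ncx-7 and the homeobox gene ceh-40. Among the lower were fmo-1, a flavin monooxygenase gene (treated 3.55, 3.45 and 3.55, indicaxanthin array 3 4.5, controls 5.76 and 6.29), the sleep neuropeptide gene flp-11, mtre-1, srlf-3 and C50F7.5. These genes were named after their values were seen. In most of them the nearest array was indicaxanthin array 3. For the third control, the authors' deposited tables implied 3.16 and 3.69 for fmo-1, 4.22 and 4.24 for flp-11 and 6.35 and 6.89 for dct-8, beside the treated arrays in each case. Of the 2 clusters past a gap of 1, none kept that gap from both estimates of the third control.

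**Figure D5:**
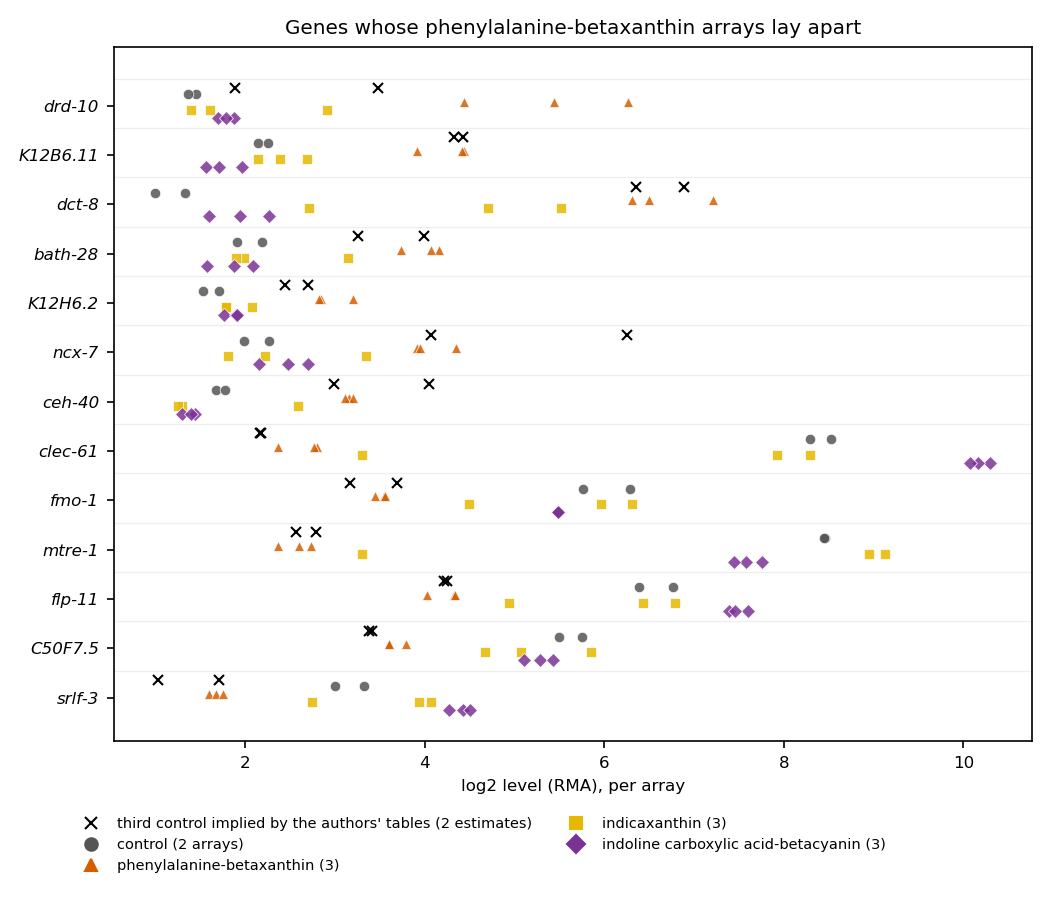
Log2 level (horizontal axis) on each of the 11 arrays, by group, of 13 genes whose phenylalanine-betaxanthin arrays lay at least 0.5 log2 units from all others, with black crosses for the 2 estimates of the third control solved from the authors' deposited tables. For drd-10 the 3 treated arrays lie at 4.44 to 6.26 and both crosses below them, while for K12B6.11 the crosses lie among the treated arrays.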

How the data were processed

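Whole-animal RNA was measured on 11 Affymetrix arrays, of which 5 (3 phenylalanine-betaxanthin, 2 control) form the main comparison. The log2 values were made by the authors with RMA, per the submitters' processing notes: background correction, quantile normalization and summary of probes. Per the file headers, the authors' deposited tables also give p-values without adjustment, the linear ratio of treated to control, sums of squares and the F score made from them, and they pair clusters with gene names. No source used here gives the RMA version, the array model or the annotation release. The authors' ratio and sums of squares served only to solve for the third control, as 3 times the difference of treated mean and log2 ratio, less the other 2 controls. The tables of 2 compounds give different estimates, so these are approximate.

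A gene name was present for 27055 of 29317 clusters, and 26811 names were found in the NCBI RefSeq gene table (assembly WBcel235). Tests covered the 20291 named clusters whose 11-array mean lay above the 25th percentile. R 4.3.3 and limma 3.58.1 (lmFit, eBayes, two-sided, Benjamini-Hochberg at 0.05) were run on the 5 arrays (residual degrees of freedom 3, prior 4.12), because indicaxanthin array 3 lies far from its group and would set the spread in a fit of all arrays. Limma's treat tested against 2-fold. Pairs of betalains were fitted on all 11 arrays. In a simulation with these group sizes, 48% of 100 changes of 1 log2 unit and 96% of 100 changes of 3 were recovered among 20291 clusters. There were 4 false calls. In the data 61.3% of clusters were called, a far larger share than was planted. The Benjamini-Hochberg cutoff depends on that share, so these rates do not carry over to the comparison. The number of arrays limits the precision. The members, gene lists and tests were chosen with earlier results of these data known. Genes were named by rule: up to 10 protein-coding genes per direction with the largest non-overlapping change, up to 3 per direction and the anchors of each list, up to 8 per direction for the arrays that lie apart, and up to 5 per direction for a pair of betalains. A few further members of the yolk, oocyte, eggshell and sperm lists, and the genes of the narrower gap, were added after their values were seen. A gene with several clusters is given by the one of highest mean. A gene of the insulin pathway list is not reported here.

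Alternatives were the fit of all arrays, the trial number as a block, other filters, further quantile normalization, median centring, trended and robust eBayes, and leaving out each array.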

Additional observations from a re-analysis of the deposited data

Results flagged for a closer look

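Clusters without a gene name were outside the comparison and were fitted apart. Of 1617 such clusters above the filter, 299 were higher and 556 lower with phenylalanine-betaxanthin than in control, by limma with adjustment over these clusters. Of the 20291 named clusters tested, 5790 were higher and 6646 lower. The unnamed clusters were flagged as data that the named comparison leaves out, and what they encode is not stated in the sources used here. Groups of 2 and 3 arrays are too small for a test of single outlying arrays.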

How the results depend on the processing

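By limma, the counts of 5790 higher and 6646 lower clusters stayed within 1.5 times under 14 of 16 alternatives each. Testing against 2-fold gave 2557 and 2285. The trial number as a replicate block in all 11 arrays gave 1650 and 2008, and in the 5 arrays 5692 and 6249. Control and treated arrays of the same trial number did not deviate together (r = -0.0015 and 0.0578), so the numbers were not shown to pair the samples. The fit of all 11 arrays without the block gave 4517 and 4524. Centring each array on its median took the median change over the tested clusters from -0.054 to 0.1 and the counts to 6673 and 5560. Leaving out each array gave 4917 to 5625 higher and 5806 to 6088 lower. The count between phenylalanine-betaxanthin and indicaxanthin ranged from 0 to 11178 when single arrays were left out, and only the fit without indicaxanthin replicate 3 was above 0. The 9592 clusters that differed from the indoline compound stayed within 1.5 times. The 2 clusters apart from every other array by 1 log2 unit became 0 at a gap of 2 and 26 at a gap of 0.5, the latter chosen after seeing the data. Of 333 named genes, 0 reversed a called direction. Calls lost were 97 against 2-fold, 49 with all 11 arrays, 199 with the block in all 11, 8 with it in the 5, and 8 to 22 without single arrays. The median of 6 lists, all of size 0.143 or less, changed sign: cytosolic ribosomal proteins and antimicrobial peptides with quantile normalization or centring, SKN-1 and lysozyme genes with centring, and insulin pathway and dod genes with centring or without single arrays. The cause of these changes was not tested. With 2 controls, changes near the threshold are limited by the number of arrays.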
